A study of Mus musculus with 5 samples.

Results

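Cd5l, Alox15, F5, F10, Prg4, Icam2, Vsig4, Garnl3 and Selp are 9 of the 27998 genes counted in 5 single-cell libraries of mouse pancreas, and all are known from macrophages of the peritoneal cavity or of other resident sites. They were chosen by name, with their high level in macrophages of the late KPfC tumour already known. The levels that set late KPfC macrophages apart are therefore given as a description, with no test. A macrophage was any kept cell with at least 3 UMIs of C1qa, C1qb and C1qc together and at least 10 such UMIs per 10000. UMIs are unique molecular identifiers, 1 for each captured transcript. The rule found 1441 macrophages among 2933 kept cells of late KPfC, 204 of 836 in late KIC, 253 of 1034 in late KPC, 685 of 3529 in early KIC and 41 of 2386 in normal pancreas.

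Each group is 1 library from untreated mice, made with droplet 3′ chemistry (10x Chromium). Late KPfC was a late invasive tumour at 60 days of age on C57BL/6. Late KIC was a late invasive tumour at 60 days, late KPC a late invasive tumour at 6 months, early KIC an early invasive tumour at 40 days, and the normal pancreas was taken at 60 days. The background of these last 4 groups was a mix of C57BL/6 and FVB. As these names are generally used, all 3 models rely on a pancreatic Cre. KIC mice lose the Cdkn2a locus, KPfC mice lose a floxed Trp53 gene and KPC mice carry a mutant Trp53. The labels do not say whether a library holds 1 animal or several. With 1 library per group, model, strain, age and depth cannot be told apart, and no difference between groups can be set against a spread between animals. Ranges in parentheses are exact 95% intervals that cover counting error only.

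The peritoneal cavity holds a large resident macrophage that depends on the transcription factor GATA6 and has little MHC class II, and a small one that comes from blood monocytes and has much of it. The large cell carries coagulation factors, the lipoxygenase encoded by Alox15, ICAM2 and lubricin, and it can reach injured organs directly from the cavity. Vsig4 and Cd5l are shared with resident macrophages of other organs, Kupffer cells of the liver among them.

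Depth differed between libraries. The median macrophage held 8133 UMIs in late KPfC, 7782.5 in late KIC, 2598 in late KPC, 1825 in early KIC and 3778 in normal pancreas. Of 8 macrophage markers such as Adgre1 and Csf1r, 7 or 8 could be measured in each library. All of these were at least 2-fold higher in macrophages than in other cells. CPM is the usual scaled count, the UMIs of a gene over all UMIs of the cells named, set to the same total in every group. Markers of endothelium summed to 13.5 CPM in late KPfC macrophages, against 34.0 CPM in the other cells, and those of platelets to 10.96 against 15.82 CPM. Epithelial markers summed to 310 CPM in late KPfC macrophages and 5140 CPM in other cells. The 5 monocyte markers, Chil3 among them, summed to 6244 CPM in late KPC macrophages, against 5717 CPM in the other cells. In late KIC they summed to 3394 against 1532 CPM, and in late KPfC to 600 against 1298 CPM. In early KIC and normal pancreas macrophages they summed to 177 and 80.5 CPM. The macrophages compared thus differed in monocyte markers between libraries. Of 10665 cell barcodes 52 occurred in more than 1 library, and of 2623 macrophage barcodes 1 did.

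The secreted and coagulation members were highest in late KPfC macrophages. F10 encodes coagulation factor X, the protease that generates thrombin, and stood at 448 CPM (436 to 460) in late KPfC, 180 CPM (161 to 200) in late KIC, 307 CPM (269 to 348) in late KPC, 74.4 CPM (60.8 to 90.2) in early KIC and 0 in normal pancreas, where 3 counts would be 17.2 CPM. F10 was high in all 3 late tumours, and late KPfC was 2.49-fold (2.23 to 2.79) over late KIC and 1.46-fold (1.28 to 1.67) over late KPC. F5 encodes factor V, the cofactor of factor X. It stood at 119 CPM (113 to 125) in late KPfC, 0.545 CPM in late KIC from a single UMI, 13.1 CPM (6.28 to 24.1) in late KPC, 5.01 CPM (2.01 to 10.3) in early KIC and 0 in normal pancreas. F5 was 9.05-fold (4.91 to 18.9) higher in late KPfC than in late KPC, the nearest tumour, and at least 6.88-fold higher than in normal pancreas, counting 3 UMIs there.

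Prg4 encodes lubricin, a mucin-like glycoprotein of joint and serosal surfaces. Its level was 407 CPM (396 to 419) in late KPfC, 10.9 CPM (6.66 to 16.8) in late KIC, 52.4 CPM (37.4 to 71.4) in late KPC, 16.5 CPM (10.4 to 24.7) in early KIC and 0 in normal pancreas. The 23 early KIC UMIs lay in 2 cells, 14 of them in 1 cell, so that value rests on very few macrophages. Cd5l encodes a secreted inhibitor of macrophage apoptosis, also called AIM. It stood at 186 CPM (178 to 194) in late KPfC and 0 in late KIC, where 3 counts would be 1.63 CPM. Late KPC had 6.55 CPM (2.13 to 15.3), early KIC 6.44 CPM (2.94 to 12.2) and normal pancreas 0. Cd5l was thus at least 114-fold higher in late KPfC than in late KIC and 28.4-fold (12.1 to 87.5) higher than in late KPC.

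Alox15, whose enzyme adds oxygen to polyunsaturated fatty acids, stood at 487 CPM (475 to 500) in late KPfC, 10.9 CPM (6.66 to 16.8) in late KIC, 56.3 CPM (40.8 to 75.9) in late KPC, 9.30 CPM (4.95 to 15.9) in early KIC and 0 in normal pancreas. The late KPfC macrophages held 5863 UMIs of Alox15, against at most 43 in the macrophages of any other library, and cells outside the macrophage rule held 908 more in late KPfC and 27 more in late KPC. Garnl3, a little studied gene for a protein with a Rap GTPase-activating domain, stood at 20.02 CPM (17.6 to 22.7) in late KPfC. It had 2 UMIs in late KIC (1.09 CPM), 1 in late KPC (1.31 CPM), 3 in early KIC (2.15 CPM) and 1 in normal pancreas (5.75 CPM). Its ratios have wide intervals, as in 18.4 (5.03 to 153) to late KIC.

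The adhesion members were less uniform. Icam2, a ligand of the leukocyte integrin LFA-1, was at 81.3 CPM (76.3 to 86.6) in late KPfC, 6.54 CPM (3.38 to 11.4) in late KIC, 1.31 CPM from 1 UMI in late KPC, 8.59 CPM (4.44 to 14.999) in early KIC and 17.2 CPM (3.56 to 50.4) in normal pancreas. Selp, the gene for P-selectin, which tethers leukocytes to endothelium and platelets, was at 59.6 CPM (55.3 to 64.1) in late KPfC, 6.54 CPM (3.38 to 11.4) in late KIC, 34.1 CPM (22.3 to 49.9) in late KPC, 2.15 CPM (0.443 to 6.27) in early KIC and 0 in normal pancreas. The ratio of late KPfC to late KPC was 1.75 (1.18 to 2.70) for Selp, and it was below 1 without 2 clusters of cells described later, at 0.798 (0.533 to 1.24). Vsig4, a complement receptor of resident macrophages, had another order. It was at 13.5 CPM (11.5 to 15.8) in late KPfC, 1.09 CPM (0.132 to 3.94) in late KIC, 14.4 CPM (7.19 to 25.8) in late KPC, 20.8 CPM (13.9 to 29.8) in early KIC and 17.2 CPM (3.56 to 50.4) in normal pancreas. The interval of the Vsig4 ratio lay above 1 for late KIC alone, at 12.4 (3.38 to 103), and the ratio to early KIC was 0.652 (0.438 to 1.005).

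**Figure D1:**
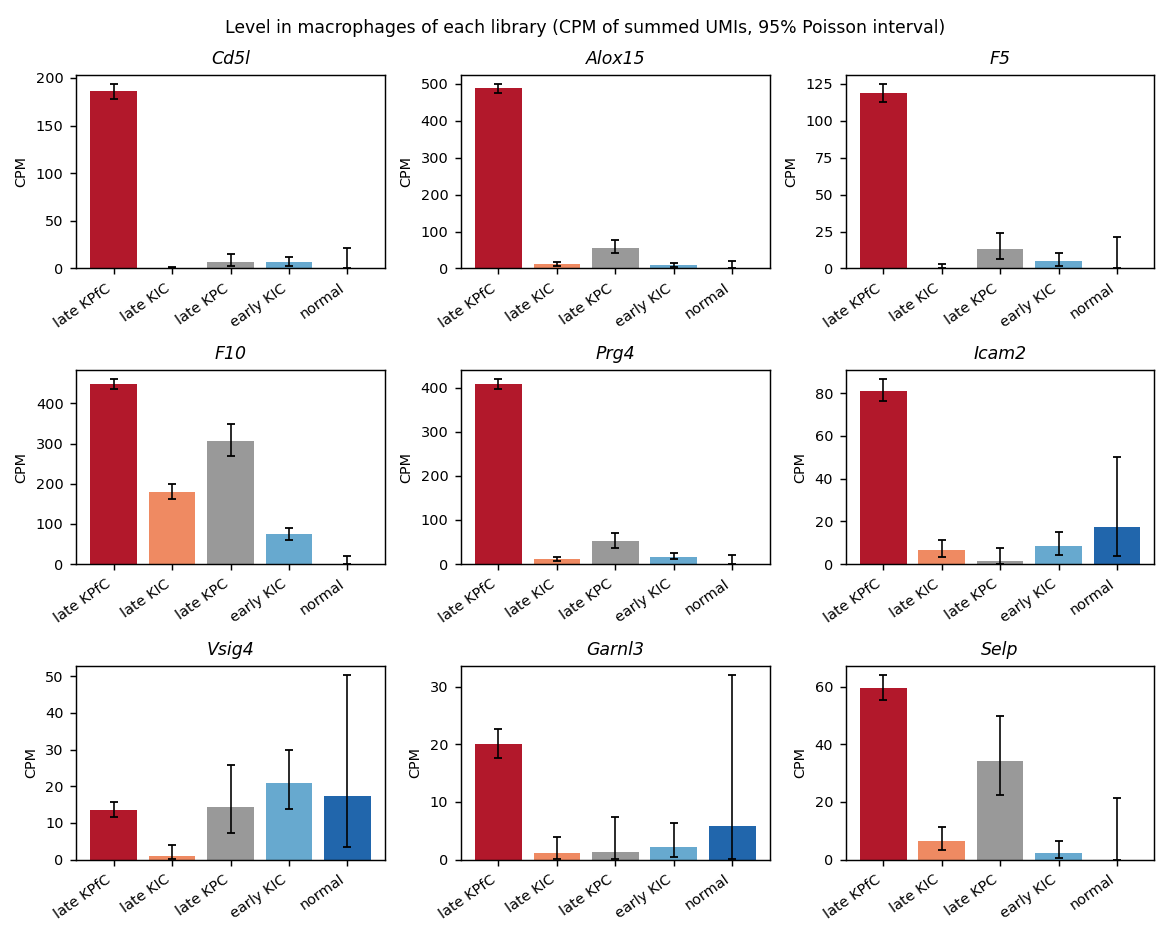
Level of each member in macrophages of the 5 libraries, as CPM of summed UMIs on a linear axis from 0 that differs between panels; bars are 1 library each and lines are 95% Poisson intervals. Late KPfC has the highest bar in 8 panels, and in the Vsig4 panel late KPC, early KIC and normal pancreas stand at or above it.

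Counted together, 9 of 9 members were at least 2-fold higher in late KPfC than in late KIC macrophages, where 11.3% of all 11012 measured genes were. A gene counted as measured with at least 20 UMIs over both groups. Against late KPC 6 of 9 were, beside 11.2% of all measured genes, the exceptions being F10, Selp and Vsig4. Against early KIC and normal pancreas 8 of 9 were, beside 11.1% and 13.4% of all measured genes, with Vsig4 as the exception in both. None was 2-fold lower in any of the 4, where 7.13%, 12.2%, 10.8% and 13% of all measured genes were. The members were chosen on these same contrasts, so nothing is read from these counts. The median log2 ratio over the members was 4.20 to late KIC, 3.11 to late KPC, 4.57 to early KIC and 2.78 to normal pancreas, against 0.01, -0.15, 0.04 and -0.35 over all measured genes, with a gene at 0 set to 3 counts. The summed level of the 9 members gave log2 ratios of 3.07, 1.91, 3.65 and 5.50 in the same order. In normal pancreas the sum held 3 UMIs of Icam2, 3 of Vsig4 and 1 of Garnl3, so the last ratio rests on few counts. The 4 comparisons share the late KPfC cells.

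The genes lie on 6 chromosomes (GRCm38, GENCODE annotation). Cd5l (ENSMUSG00000015854) is on chromosome 3, from 87357881 to 87371073 on the plus strand, Alox15 (ENSMUSG00000018924) on chromosome 11, 70344152 to 70352031, minus, and Icam2 (ENSMUSG00000001029) on the same chromosome, 106377656 to 106388075, minus. F10 (ENSMUSG00000031444) is on chromosome 8, 13037308 to 13056676, plus, Vsig4 (ENSMUSG00000044206) on X, 96247203 to 96293438, minus, Garnl3 (ENSMUSG00000038860) on chromosome 2, 32986224 to 33131654, minus, and Prg4 (ENSMUSG00000006014) on chromosome 1, 150449412 to 150466165, minus. Selp (ENSMUSG00000026580, 164115264 to 164150026) and F5 (ENSMUSG00000026579, 164151838 to 164220277) are neighbours on the plus strand of chromosome 1, and 1811 bases separate the end of Selp from the start of F5. F7, the gene for factor VII, ends 1498 bases before F10 on the same strand. The order of F7 differed from that of F10 between late KIC and late KPC, with 171 CPM in late KPfC, 83.9 in late KIC, 41.9 in late KPC, 38.6 in early KIC and 0 in normal pancreas. The last bases of Prg4 overlap Tpr on the opposite strand, and Tpr stayed between 82.8 and 109 CPM in the 5 libraries. Whether counting used strand is not stated in the labels or processing notes. Gm16587, annotated on the opposite strand within Selp, had 38 UMIs in late KPfC macrophages against 717 of Selp, and Gm16548, which overlaps the F5 locus on the opposite strand, had 24 against 1428. Reads from such overlaps are uncertain.

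RefSeq promoters (GRCm38.p6, 250 bases before to 50 after the start) were at hand for 6 of the members and are shown for 3: for Cd5l because it alone held the GATA letters AGATAA or TGATAA, and for Selp and F5 because they are neighbours. Capitals mark TGATAA. Both strands were searched for each motif, and in the Cd5l promoter the matches of the GATA and PU.1 letters do not overlap.
Cd5l, chr3:87357631-87357930, plus strand: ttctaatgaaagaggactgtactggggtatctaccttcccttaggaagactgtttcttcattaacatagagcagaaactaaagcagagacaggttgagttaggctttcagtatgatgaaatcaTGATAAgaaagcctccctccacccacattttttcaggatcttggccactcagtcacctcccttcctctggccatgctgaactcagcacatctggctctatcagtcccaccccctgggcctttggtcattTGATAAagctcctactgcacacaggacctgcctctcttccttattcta
Selp, chr1:164115014-164115313, plus strand: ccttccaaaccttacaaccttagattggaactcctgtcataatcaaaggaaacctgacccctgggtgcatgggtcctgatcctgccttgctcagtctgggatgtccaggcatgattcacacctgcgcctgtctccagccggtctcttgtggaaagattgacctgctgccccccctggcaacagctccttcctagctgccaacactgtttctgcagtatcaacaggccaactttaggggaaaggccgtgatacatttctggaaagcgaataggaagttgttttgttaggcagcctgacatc
F5, chr1:164151585-164151884, plus strand: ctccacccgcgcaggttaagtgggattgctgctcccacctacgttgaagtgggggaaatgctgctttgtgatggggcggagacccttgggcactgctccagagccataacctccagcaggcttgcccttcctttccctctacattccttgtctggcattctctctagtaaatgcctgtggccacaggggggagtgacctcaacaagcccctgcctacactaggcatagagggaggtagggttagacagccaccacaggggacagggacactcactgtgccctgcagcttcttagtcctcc

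The first TGATAA in Cd5l begins 127 bases before the start and the other just after it. AGATAA or TGATAA is found in 18.6% of the 32851 promoters searched, and GAGGAA, a core of PU.1 sites, in 28.3%; of the 6 members, Cd5l and Vsig4 held GAGGAA. These are matches of letters and show no binding.

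Within late KPfC, each member was at least 2-fold higher in macrophages than in the 1492 other cells, where 8.47% of all measured genes were and 30% were lower. Cd5l had 186 CPM in macrophages against 11.5 CPM in other cells, which is 16.2-fold (13.8 to 19.1), and Vsig4 14.4-fold (8.20 to 27.7). The smallest ratios were those of Garnl3, 3.01 (2.36 to 3.87), F5, 3.23 (2.91 to 3.58), and F10, 3.65 (3.46 to 3.86). The same contrast gave 2 of 7 measured members higher in late KIC (11.8% of all measured genes), 2 of 5 in late KPC (6.6%), 3 of 4 in early KIC (11.4%) and 1 of 1 in normal pancreas (35.8%). The higher members were Alox15 and F10 in late KIC, Alox15 and Prg4 in late KPC, F10, Prg4 and Vsig4 in early KIC, and Icam2 in normal pancreas, there from 3 UMIs. For Prg4 in early KIC, the 23 macrophage UMIs lay in 2 of 685 cells (0.292%), while 0.598% of the other cells held it. In late KIC F5, Garnl3 and Selp were lower (29.5%), and none was in late KPC (19.4%), early KIC (27.2%) or normal pancreas (5.11%).

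The share of cells with a UMI was compared with a cell class that should lack most of these transcripts, the late KPfC cells with epithelial markers. Cells outside the macrophage rule were put in the class whose marker list was highest, at 3 UMIs and 10 per 10000 or more. The 488 epithelial-marker cells had a median depth of 10809.5 UMIs, above the 8133 of the macrophages. Cd5l was detected in 28.0% of macrophages and 6.15% of epithelial-marker cells, Alox15 in 39.1% and 15.98%, Prg4 in 29.2% and 10.9%, and F10 in 80.2% and 14.3%. Icam2 was detected in 21.3% of macrophages and 3.89% of epithelial-marker cells, Selp in 23.3% and 1.23%, and Vsig4 in 3.40% and 0.410%. In the epithelial-marker cells the level of these 7 genes was 1.54% to 3.75% of that in macrophages, a range in which free RNA cannot be told apart from expression. F5, in 34.8% of macrophages and 33.4% of epithelial-marker cells, stood at 35.1% of the macrophage level, and Garnl3, in 9.16% and 4.10%, at 19.0%. F5 had 273 UMIs in 163 epithelial-marker cells, or 41.6 CPM (36.8 to 46.8), and late KPC epithelial-marker cells had 54.5 CPM of F5 from 18 UMIs, above the 13.1 CPM of the macrophages there. In late KIC the epithelial-marker cells had 2.80 CPM of F5.

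Prg4, Garnl3, Icam2, Selp and F10 were also found in other classes. Prg4 had 55.0 CPM in the 176 fibroblast-marker cells of late KPfC and 102 CPM in the 88 of late KIC, where macrophages had 10.9 CPM. The fibroblast-marker cells with a Prg4 UMI held more of the mesothelial markers Msln, Upk3b, Lrrn4, Upk1b, Muc16 and Wt1, at 1641 against 732 CPM in those without in late KPfC, 852 against 362 CPM in late KIC and 1677 against 255 CPM in early KIC. In late KPC the values were 414 CPM in 6 cells with Prg4 and 394 CPM in those without. Garnl3 was found in 10.2% of the fibroblast-marker cells of late KPfC, at 8.46 CPM, against 9.16% of macrophages, at 20.02 CPM. The median depth of these fibroblast-marker cells was 11995.5 UMIs. In late KIC Garnl3 stood at 7.82 CPM in fibroblast-marker cells and 1.09 CPM in macrophages. In late KPC it stood at 8.15 CPM from 4 UMIs, against 1.31 CPM from 1 UMI. Icam2 was detected in 41 of 131 endothelial-marker cells of early KIC, at 225 CPM, against 8.59 CPM in the macrophages. For Selp, 5 endothelial-marker cells of late KIC held 47 of the 152 UMIs outside macrophages, and 277 epithelial-marker cells held 100, at 13.3 CPM. F10 was high in the monocyte-marker cells below the C1q threshold: it stood at 567 CPM in the 303 such cells of late KPfC, at 327 CPM in 88 of late KIC and at 412 CPM in 274 of late KPC, each above the macrophages of the same library. The other members were below their macrophage level in these late KPfC cells, between 14.1% for Cd5l and 70.5% for Selp.

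The C1q threshold cut through cells with the members. The 198 late KPfC cells with 10 to 20 C1q UMIs per 10000, just inside, had a summed level of the 9 members of 3566 CPM, and the 157 cells just outside, with 5 to 10 per 10000 or under 3 UMIs, had 1418 CPM. The 1243 cells further inside had 1576 CPM and the 1335 with under 5 per 10000 had 255 CPM.

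Single late KPfC macrophages differed widely in how many members they held. None was detected in 142 cells and 1 in 432, while 2, 3 and 4 were detected in 308, 174 and 100. From there on the counts no longer fell steadily: 69 cells held 5, 61 held 6, 64 held 7, 80 held 8 and 11 held all 9. At least 2 members were found in 867 cells, 60.2% (57.6 to 62.7), and at least 5, a limit chosen after the counts were seen, in 285 cells, 19.8% (17.7 to 21.9). Of the 488 deeper epithelial-marker cells 1 held 5 members and none held more. In late KIC 1 of 204 macrophages held at least 5, in late KPC 2 of 253, in early KIC 1 of 685 and in normal pancreas 0 of 41, with an exact upper limit of 8.60% at a median of 3778 UMIs per cell. Outside the macrophage rule 35 of the 1492 other late KPfC cells held at least 5, of which 18 lay just outside the C1q threshold and 17 had under 5 C1q UMIs per 10000.

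**Figure D2:**
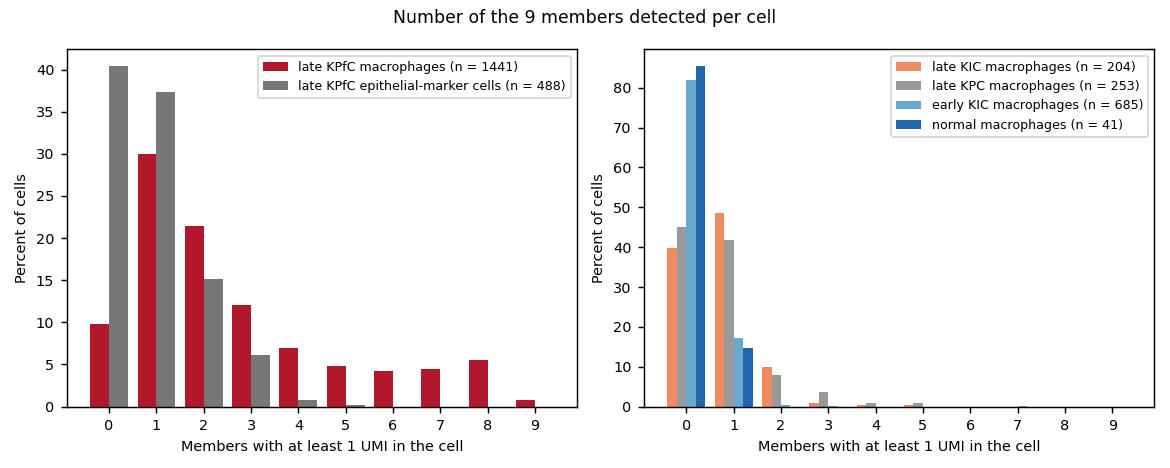
Percent of cells (vertical) by number of the 9 members with at least 1 UMI (horizontal), for late KPfC macrophages beside late KPfC epithelial-marker cells on the left, and for macrophages of the other libraries on the right. Late KPfC macrophages have 80 cells at 8 members, more than at 5, 6 or 7, and none of the other sets plotted has a cell at 8.

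Because macrophages differed in depth between libraries, every macrophage was also reduced at random to 1000 UMIs, leaving out 12 late KPC macrophages below that depth. At least 2 members were then seen in 20.7% (18.6 to 22.9) of late KPfC macrophages, 0.980% of late KIC, 5.81% of late KPC, 0.292% of early KIC and 0 of 41 normal pancreas macrophages. At least 5 were seen in 52 late KPfC macrophages, and in 10 of the 1492 other late KPfC cells at the same depth. No macrophage of another library held 5 at that depth, with 0 of 204 in late KIC, 0 of 241 in late KPC, 0 of 685 in early KIC and 0 of 41 in normal pancreas. The single early KIC macrophage with 7 members, at 2555 UMIs in all, held 14 UMIs of Prg4 and 2 of Cd5l. Of 16 further genes listed for the large peritoneal macrophage, 5 had a UMI in this cell: Saa3 with 41, Serpinb2 with 11, Ltbp1 and Timd4 with 2 each and Aspa with 1. The other 11, Gata6, Itga6, Thbs1, Tgfb2 and Slpi among them, were at 0.

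The members shared cells. In 1275 late KPfC macrophages reduced to 4000 UMIs, the share of cells with both genes of a pair was 2.37 times the product of the separate shares, as the median over the 36 pairs. The ratio cannot exceed 1 over the share of the more common gene of a pair, so ratios of common and of rare genes are not comparable. For the 21 pairs without F10 and Vsig4 the ratio ran between 1.96 and 4.45. Garnl3 shared its cells with most other members: of 61 cells with Garnl3, 59 held Prg4, 56 Alox15, 52 F5, 46 Cd5l and 40 Icam2. Of the 289 cells with Prg4, 20.4% had a Garnl3 UMI, against 0.203% of the cells without Prg4. F10 was in 70.3% of these cells, which limits its ratios to 1.42, and they lay between 0.899 and 1.28. It was found in 90.2% of the cells with Garnl3, against 69.3% of those without, and in 83.7% of the cells with Prg4, against 66.3% of those without. Vsig4 was found in 38 cells, and its ratios, from 0.899 with F10 to 2.75 with Garnl3, rest on few cells.

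**Figure D3:**
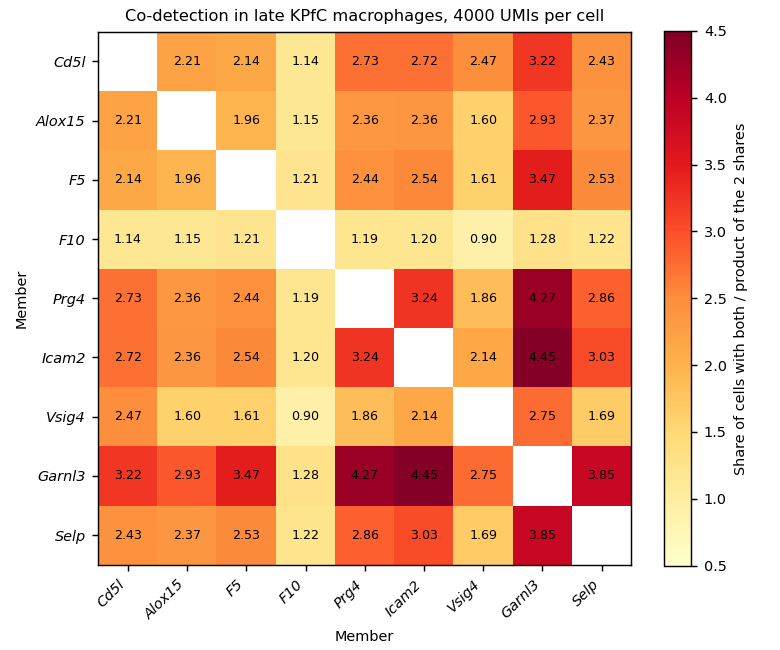
Co-detection of each pair of members in 1275 late KPfC macrophages reduced to 4000 UMIs; colour and numbers give the share of cells with both genes over the product of their shares, and both axes list the members. The Garnl3 row reaches 4.27 with Prg4 and 4.45 with Icam2, where 4.41 and 6.78 are the highest values possible, and the F10 row lies between 0.899 and 1.28 under a limit of 1.42 set by its share of 70.3%.

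To see whether they sit in 1 subset, the late KPfC macrophages were clustered on 2000 variable genes with the members left out, which gave 11 clusters, numbered from 0. Of the 867 cells with at least 2 members 16.8% lay in the cluster that held most of them, cluster 0. It was also the largest cluster, with 214 of the 1441 macrophages. By that limit, which F10 in 80.2% of macrophages makes easy to reach, the members did not mark 1 subset. The cells with many members, a limit chosen later, were less evenly spread. Cluster 8 held 103 cells, all with at least 5 members and with a median of 8. The leading genes of cluster 8 were Cd209b, a C-type lectin of resident macrophages, the vomeronasal receptor gene Vmn2r26, Tgfb2, Ltbp1 and Wnt2. In this cluster Prg4 reached 3474 CPM (3360 to 3592) and was found in every cell, with a median of 30 UMIs, against 130 CPM in the other clusters. Alox15 was also in every cell, at 3176 CPM against 244 CPM. Garnl3 was in 74.8% of its cells, at 164 CPM against 6.97 CPM, so 68.0% of all Garnl3 UMIs of late KPfC macrophages lay in these 103 cells.

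Cluster 7 came next, with 115 cells and a median of 6 members, and 85 of its cells held at least 5. The leading genes of cluster 7 were Prok2, a prokineticin, and Marco, a scavenger receptor, with Serpinb10 and Saa3 further down. Cd5l was nearly as high there as in cluster 8, at 511 CPM in cluster 7 and 676 CPM in cluster 8, while Prg4 was at 473 CPM and Garnl3 at 21.9 CPM in cluster 7. Marco separated the clusters in the opposite direction, with 41.1 CPM in cluster 8 and 1274 CPM in cluster 7. F13a1, the gene for the A chain of coagulation factor XIII, stood at 9.02 CPM in cluster 8 and 346 CPM in cluster 7, and Cd209a at 93.2 CPM in cluster 8 and 2.53 CPM in cluster 7.

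Clusters 7 and 8 together, 218 of 1441 cells, held 188 of the 285 cells with at least 5 members (66.0%) and 83.9% of those with at least 7. The 2 clusters held 82.1% of the Prg4 UMIs, 78.8% of Garnl3, 75.1% of Icam2, 70.9% of Alox15, 62.6% of Selp, 59.4% of F5 and 57.1% of Cd5l. They held 29.2% of the UMIs of F10 and 29.4% of those of Vsig4. All members but Vsig4 had their highest level in cluster 8, and further cells with at least 5 members lay elsewhere. Cluster 10, led by cell cycle genes such as Hist1h2ap, had 29 of 74 and a Prg4 level of 585 CPM, above that of cluster 7. Cluster 1, with Retnla among its leading genes, had 36 of 161, and cluster 0, led by Ccl8 and Lyve1, had 21 of 214. Vsig4 was highest in cluster 0, at 53.3 CPM against 6.63 CPM in the other clusters. Clusters 2, 6 and 9 held no cell with at least 5 members. In cluster 5, 94.5% of cells also passed the marker threshold for fibroblasts or epithelium.

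**Figure D4:**
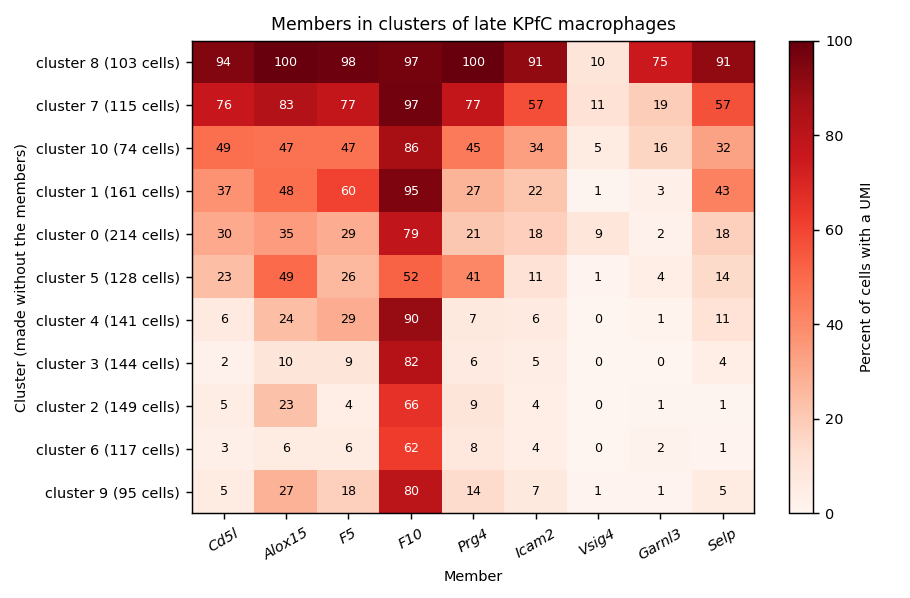
Percent of cells with a UMI of each member (columns) in each cluster of late KPfC macrophages (rows), with the clusters made without the members and ordered by their share of cells with at least 5. Cluster 8 lies between 74.8% and 100% for all members except Vsig4, at 9.71%, and F10 lies above 51% in every cluster.

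With clusters 7 and 8 left out, a step added after the clusters were seen, the other 1223 late KPfC macrophages had a summed member level of 875 CPM, against 6098 CPM in the 218 cells. Over late KIC, 9 of 9 members still were at least 2-fold higher (10.9% of all measured genes), over late KPC 5 (11.6%), over early KIC 8 (10.8%) and over normal pancreas 5 (14.1%). None was 2-fold lower, beside 6.47%, 11.9%, 10.5% and 12.6% of all measured genes in these comparisons. Selp then stood at 27.2 CPM, against 34.1 CPM in late KPC, so that its ratio of 0.798 (0.533 to 1.24) lay on the other side of 1, within counting error of it. Cd5l then stood at 97.4 CPM, at least 59.6-fold above late KIC, and Prg4 at 89.1 CPM, 8.17-fold (5.26 to 13.4) above it.

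The gene lists used from here on were chosen with earlier results of these data known, so their counts are a description. Other genes of the large peritoneal macrophage were higher in late KPfC macrophages that held the members. Of 16 such genes 14 were at least 2-fold higher in the 867 cells with at least 2 members than in the 142 with none, where 9.92% of all measured genes were, and none was lower, beside 6.41%. Those with at least 5 members, 285 cells, were then set against the 574 with 0 or 1, a limit chosen after the counts were seen. Here 15 of the 16 were at least 2-fold higher, where 7.86% of all measured genes were, and none was lower. The exception was the chemokine gene Cxcl13, at 27.3 against 20.9 CPM. Their median log2 ratio was 3.34, against -0.05 over all measured genes. Ltbp1, a binding protein of latent TGF-beta, was at 83.7 CPM (254 UMIs) in cells with at least 5 members and 1.97 CPM (8 UMIs) in cells with 0 or 1, and Tgfb2 at 31.3 against 0.739 CPM. Gata6, singled out here because it defines the large peritoneal macrophage, was at 28.7 CPM (87 UMIs) against 1.97 CPM (8 UMIs), 14.5-fold (7.06 to 34.7). Gata6 is also known from pancreatic epithelium. Over all late KPfC macrophages it stood at 9.88 CPM, against 40.1 CPM in the other cells. The epithelial markers summed to 210 CPM in macrophages with at least 5 members and 344 CPM in those with 0 or 1. The part of epithelial RNA in the Gata6 level was not tested. Serpinb2, which encodes a plasminogen activator inhibitor, stood at 1752 against 130 CPM, and Itga6, an integrin chain, at 257 against 12.6 CPM.

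**Figure D5:**
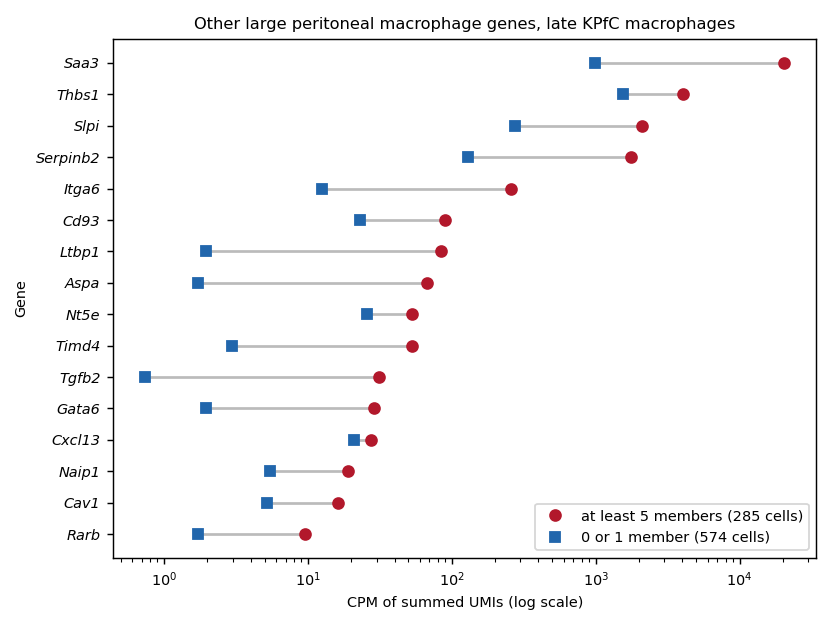
CPM of summed UMIs, on a log axis, for the 16 listed genes of the large peritoneal macrophage other than the members, in late KPfC macrophages with at least 5 members (circles) and with 0 or 1 (squares). The circle lies to the right of the square for each gene, with the smallest distance for Cxcl13.

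Genes of the small peritoneal macrophage went mostly the other way. Of 11 measured 7 were at least 2-fold lower in cells with at least 5 members, beside 8.47% of all measured genes, and 1 was higher, beside 7.86%. The invariant chain Cd74, which MHC class II needs, was at 2408 CPM in cells with at least 5 members and 16810 CPM in cells with 0 or 1, and H2-Aa at 630 against 4486 CPM. Ccr2, the chemokine receptor of blood monocytes, was at 25.7 against 220 CPM, 8.55-fold lower. The gene that was higher was the lectin Cd209a, at 33.9 against 9.12 CPM. Lyve1, Folr2 and Clec10a of this list lay within 2-fold. Of the liver and spleen list, Marco was the 1 gene of 8 that was at least 2-fold higher, at 487 against 22.9 CPM, the iron exporter Slc40a1 and the oxysterol receptor Nr1h3 were lower, and no UMI of the Kupffer cell gene Clec4f was seen in either group.

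Among 16 measured coagulation and fibrinolysis genes other than the members, 5 were at least 2-fold higher in cells with at least 5 members and 1 was lower, beside 7.86% and 8.47% of all measured genes. F3, the gene for tissue factor, which starts coagulation together with factor VII, was at 453 against 36.5 CPM, 12.4-fold (10.5 to 14.8). F13a1, Pros1, the gene for protein S, and Vkorc1, which recycles vitamin K, were also among the higher genes, with Pros1 at 88.6 against 21.9 CPM. F7 was within 2-fold, at 197 against 132 CPM, and Procr, the receptor of protein C, was lower, at 8.89 against 40.4 CPM. The liver-made factors F11, F12, Fga, Fgb and Fgg had no UMI in either group. Other genes of the list were seen: over all late KPfC macrophages F2 and F9 had 4 UMIs each, Proc 12, Serpinc1 22 and Serpind1 43.

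Of the eicosanoid enzymes 5 of 12 were past 2-fold higher in cells with at least 5 members and 2 were past 2-fold lower, again beside 7.86% and 8.47% of all measured genes. Ptgis, the prostacyclin synthase, was at 203 against 11.3 CPM and Alox5, the 5-lipoxygenase, at 129 against 15.8 CPM, while Hpgds, a prostaglandin D synthase, was at 1.65 against 18.7 CPM. Of 9 measured targets and receptors of the oxysterol receptors LXR, of which Cd5l is a known target, 1 was higher and 2 were lower, and with so few genes nothing is read from these counts beside the same shares. Mylip was at 57.0 against 13.6 CPM and Apoe at 3936 against 10492 CPM. Of 8 binding partners of the members 3 were higher and 2 lower, beside the same 7.86% and 8.47%. Selplg, the ligand of P-selectin, was at 342 against 118 CPM and Itgb2, the beta chain of the integrin that binds ICAM2, at 752 against 260 CPM. Its alpha chain Itgal was at 3.95 against 37.0 CPM.

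Other measures also differed between these cells. Cells with at least 5 members had a median of 10500 UMIs, against 6692 in cells with 0 or 1, and 42.1 against 59.2 C1q UMIs per 10000. Cell cycle genes marked 14.4% against 6.27% of cells, and mitochondrial UMIs were at a median of 4.10% against 4.89%. The share past the marker threshold of a non-myeloid class did not follow the number of members: it was 3.16% with at least 5 members, 14.4% in the 582 cells with 2 to 4 and 7.32% with 0 or 1, and for the fibroblast threshold 1.75%, 9.79% and 2.61%. Fibroblast markers summed to 108, 298 and 96.8 CPM in the same order. The cells with 2 to 4 members are most of the 867 with at least 2, and the part of these markers in the comparison of those cells was not tested. The 8 platelet markers summed to 1.98 CPM in cells with at least 5 members, 18.0 CPM in those with 2 to 4 and 9.12 CPM in those with 0 or 1, with Gp9, Gp1bb and Tubb1 at 0 in all 3 groups. The 8 endothelial markers summed to 12.8 against 14.3 CPM, with Emcn at 0 in both, and the 6 mesothelial markers to 19.4 against 22.2 CPM. The part of depth and of the cell cycle in the counts of members was not tested.

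By the rule on likeness, the 10 other genes with the highest ratio between late KPfC macrophages with at least 2 members and those with none, at 50 or more UMIs over both, included Padi4, Marco, Ltbp1, Gm16104, Vmn2r26, Saa3, Fam198b, Wfdc21 and Ucp1. Padi4, a peptidylarginine deiminase, was at 118 CPM against 2.32 CPM and was found in 45.1% of the 867 cells against 1.41% of the 142. Marco was at 336 against 9.26 CPM, 36.3-fold (18.4 to 84.1), and Saa3, an acute-phase protein, at 10875 against 611 CPM, 17.8-fold (16.3 to 19.4). Ltbp1, Gm16104, Vmn2r26 and Fam198b had 1 UMI each in cells without members. The 5 lowest were Grasp, Adamdec1, Cd72, Ms4a4c and Zmynd15, with Adamdec1, a metalloprotease-like gene, at 14.7 against 104 CPM. With at least 5 members set against 0 or 1, chosen after the counts were seen, Cd209b led, at 59.3 CPM (180 UMIs) against 0.246 CPM (1 UMI), and 4 of the 10 genes were the same, Ltbp1, Ucp1 and Vmn2r26 among them.

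The peritoneal list was also compared across libraries. Of its 16 genes 10 were at least 2-fold higher in late KPfC macrophages than in late KIC (11.3% of all measured genes), 9 than in late KPC (11.2%), 12 than in early KIC (11.1%) and 7 than in normal pancreas (13.4%). None was 2-fold lower than in late KIC (7.13%), and 1 was lower than in late KPC (12.2%), early KIC (10.8%) and normal pancreas (13%). Serpinb2 stood at 620 CPM in late KPfC, 24.5 in late KIC, 98.3 in late KPC, 62.3 in early KIC and 0 in normal pancreas. Gata6 had 119 UMIs in late KPfC (9.88 CPM), 5 in late KIC (2.72 CPM), 2 in late KPC (2.62 CPM) and 1 in early KIC (0.716 CPM). Its ratios were 3.63 (1.51 to 11.4) to late KIC, 3.77 (1.02 to 31.5) to late KPC and 13.8 (2.43 to 550) to early KIC. Gata6 had none in normal pancreas, where 3 counts would be 17.2 CPM, so the depth there does not reach the late KPfC level. Timd4, a phosphatidylserine receptor of resident macrophages, did not follow this order: it was at 19.4 CPM in late KPfC, 1.63 in late KIC, 9.17 in late KPC, 25.04 in early KIC and 121 in normal pancreas. The median log2 ratio of the list was 2.13 to late KIC, 1.33 to late KPC, 2.19 to early KIC and 0.81 to normal pancreas, against 0.01, -0.15, 0.04 and -0.35 over all measured genes. Outside clusters 7 and 8, 7 of 15 measured list genes were at least 2-fold higher than in late KIC (10.9% of all measured genes), 4 of 15 than in late KPC (11.6%), 9 of 16 than in early KIC (10.8%) and 7 of 15 than in normal pancreas (14.1%). There 0, 3, 3 and 1 were 2-fold lower, beside 6.47%, 11.9%, 10.5% and 12.6%. The median log2 ratios of the list were then 0.78, 0.70, 1.30 and -0.85, so against normal pancreas the median and the counts differ in direction.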

How the data were processed

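Single cells were captured with 10x Chromium 3′ chemistry, per the labels' protocols. The deposited matrices hold the authors' UMI counts per gene and barcode, made with Cell Ranger 2.1.1 on GRCm38, per the submitters' processing notes. The annotation release and the use of strand are not stated there. Barcodes under 200 genes or 500 UMIs, or with over 20% mitochondrial UMIs, were dropped, which left 10718 cells. Doublets were not called or removed.

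Counts were summed per library and class and given as CPM, with exact Poisson, Clopper-Pearson and binomial 95% intervals. Folds against 0 use 3 counts, over the group. With 1 library per group no test was made and no p-value is given. The functions were tested on simulated data. Clusters came from scanpy 1.11.5 and leidenalg 0.10.2 (2000 variable genes without the members, 30 components, 15 neighbours, resolution 1). A gene at least 2-fold apart was counted where both groups together had at least 20 UMIs, and genes like the members needed 50. Named genes were the members, the 2 genes of each list furthest each way, and the 10 highest and 5 lowest like genes; further list genes were named after their values were seen. Symbols listed more than once were left out of the lists. The members and lists were chosen with earlier results of these data known. The macrophages held 12039467 UMIs in late KPfC, 1834868 in late KIC, 763286 in late KPC, 1397502 in early KIC and 173991 in normal pancreas, so that 3 counts are 0.249, 1.63, 3.93, 2.15 and 17.2 CPM. Alternatives changed the C1q rule, the filters, the depth, the members and the clustering. Some genes that these rules select are not reported here.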

Additional observations from a re-analysis of the deposited data

Results flagged for a closer look

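Selp had opposite directions in 2 libraries. In late KIC its log2 ratio of macrophages over other cells was -1.09, with 6.54 CPM in macrophages and 13.9 CPM in other cells, while in late KPfC the log2 ratio was 2.57, with 59.6 CPM in macrophages and 10.0 CPM in other cells. With 1 library each, the difference was not tested. Of the 152 late KIC UMIs outside macrophages, 47 lay in 5 endothelial-marker cells and 100 in 277 epithelial-marker cells, and their part in the result was not tested.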

How the results depend on the processing

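No paired analysis was possible because each group is 1 library. The summed ratios kept their direction under every alternative run. Among single members whose interval lay off 1, Selp over late KPC turned without clusters 7 and 8, to a log2 ratio of -0.33. At 1000 UMIs per cell Vsig4 over late KIC and Selp over normal pancreas gave no direction, as no UMI was left on the side of late KIC and normal pancreas. The log2 ratio of the summed members, late KPfC over late KIC, late KPC, early KIC and normal pancreas, was 3.07, 1.91, 3.65 and 5.50. A C1q rule of 5 UMIs and 20 per 10000 gave 3.39 to early KIC. Without macrophages that pass the markers of another class it was 3.40 to late KIC and 2.49 to late KPC. At 1000 UMIs per cell 5 of 8 members were at least 2-fold higher than in normal pancreas. The share over all genes was not counted at that depth, so nothing is read from this count. The summed log2 ratio at that depth was 2.70, 1.60 and 3.42 to the 3 tumours. As a mean over cells it was 2.83 to late KIC and 1.70 to late KPC. Without Icam2 and Vsig4 it was 3.90 to early KIC and 8.23 to normal pancreas, where 1 UMI of Garnl3 was all that was left. Settings added after seeing the data left out F10 or clusters 7 and 8. Leaving out F10 gave 5.19, 2.94 and 4.28 to the tumours. Leaving out clusters 7 and 8 gave 2.01, 0.85, 2.59 and 4.44. Over normal pancreas 5 members were then at least 2-fold higher, beside 14.1% of all measured genes.

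The share of late KPfC macrophages with at least 2 members, 60.2%, was 20.7% at 1000 UMIs, 46.6% at 4000 UMIs and 38.8% for at least 3 members. Among added settings it was 19.8% for at least 5 members, 34.0% counting from 2 UMIs and 40.8% without F10. The median pair ratio, 2.37, was 2.35 under the stricter C1q rule, 2.28 with a receptor UMI asked for, 2.32 under stricter cell filters, 2.43 without cells of another class, 2.42 without non-myeloid ones (added), 1.97 on all UMIs, 2.66 at 2000 UMIs and 2.374 without Icam2 and Vsig4. The share of cells with at least 2 members in their main cluster, 16.8%, was 23.7% with a receptor UMI, 22.2% without cells of another class, 41.2% at resolution 0.5 and 11.9% at resolution 2. In added settings it was 36.1% for at least 5 members and 59.4% for at least 7, at all 3 resolutions. The causes of these shifts were not tested. Cluster 8 kept the same 103 cells at resolutions 0.5 and 2. In normal pancreas, with 41 macrophages, 1 UMI is 5.75 CPM and 3 are 17.2 CPM, which limits every comparison with it.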
